A study of Mus musculus with 2 samples.

Results

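The ErbB receptors and their EGF-family ligands were examined in mouse liver. The 10 genes were the receptors Egfr, Erbb2 and Erbb3 and the ligands Nrg1, Nrg4, Areg, Ereg, Hbegf, Tgfa and Btc, matched by the gene name that the array design gives each probe. They had been chosen by the difference in processed signal between the same pair of arrays that is described below, so every difference of a member is a description and none is a test. They took up 14 of the 39429 gene probes and 10 of the 30222 gene names on the array. Liver RNA of male C57BL/6J mice was measured on 1-colour Agilent arrays, with 1 array for wild type and 1 for a Drp1 knockout. Drp1, encoded by Dnm1l, is the dynamin-like GTPase that divides mitochondria. Both groups had been kept on a lard diet with 24% fat, or 45% of its calories, from an age of 4 weeks and for 24 weeks. According to the series' title Drp1 was disrupted in the liver. The promoter that drove the deletion, the deleted part of the gene, the feeding state at sampling and the number of animals behind each RNA are not given in the sources used here. With 1 array a group, no difference has a replicate check and no p-value is given.

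ErbB receptors are tyrosine kinases of the cell surface that pair up when an EGF-like ligand binds. Egfr binds Tgfa, Areg, Ereg, Hbegf and Btc, while a neuregulin binds Erbb3, Erbb4 or both, depending on the neuregulin. Erbb2 has no ligand of its own and serves as a partner, and Erbb3 has little kinase activity and depends on one. The ligands are made as membrane proteins, most of which are shed by proteases, and the receptors signal through Ras-ERK and PI3K-Akt. In liver this system is known for its part in regeneration after injury, with Egfr as the abundant receptor of hepatocytes.

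A probe was taken as detected if the scanner software placed 50% or more of its spots well above background. Of the 14 probes, 7 were detected on both arrays (3 of Egfr, 1 of Erbb2 and 3 of Nrg4), 6 in the knockout only (Nrg1, Areg, Btc, Hbegf, Tgfa and Erbb3), 0 in the wild type only and 1, that of Ereg, on neither. Over all gene probes with a usable spot on both arrays, 7.72% were detected in the knockout only and 1.14% in the wild type only. Members chosen by their difference need not follow these shares. Nrg1 was at least 17.6-fold higher in the knockout, Areg at least 3.76-fold, Btc at least 2.21-fold and Tgfa at least 1.40-fold. Such a lower bound sets the knockout level against the higher of the probe's own wild type level and the lowest level of any detected wild type probe. That lowest level is no strict limit of detection, as the undetected wild type probes of Hbegf and Erbb3 read above it. The folds are thus bounds under this rule only, and all were smaller under normexp background correction, which lifts dim signals. For Hbegf the own wild type level was the higher and was not detected. Its value, 1.64-fold higher in the knockout, is thus the ratio of its levels and could be smaller. Egfr, Erbb2 and Nrg4 read slightly lower in the knockout after scaling.

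Levels are multiples of an array's 75th percentile signal: 461 for the wild type array and 722 for the other. The knockout array was thus 1.57 times as bright at this percentile, and before this scaling all 14 probes read brighter on it. The share of all gene probes that were detected was 50.6% in the wild type and 57.1% in the knockout.

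**Figure D1:**
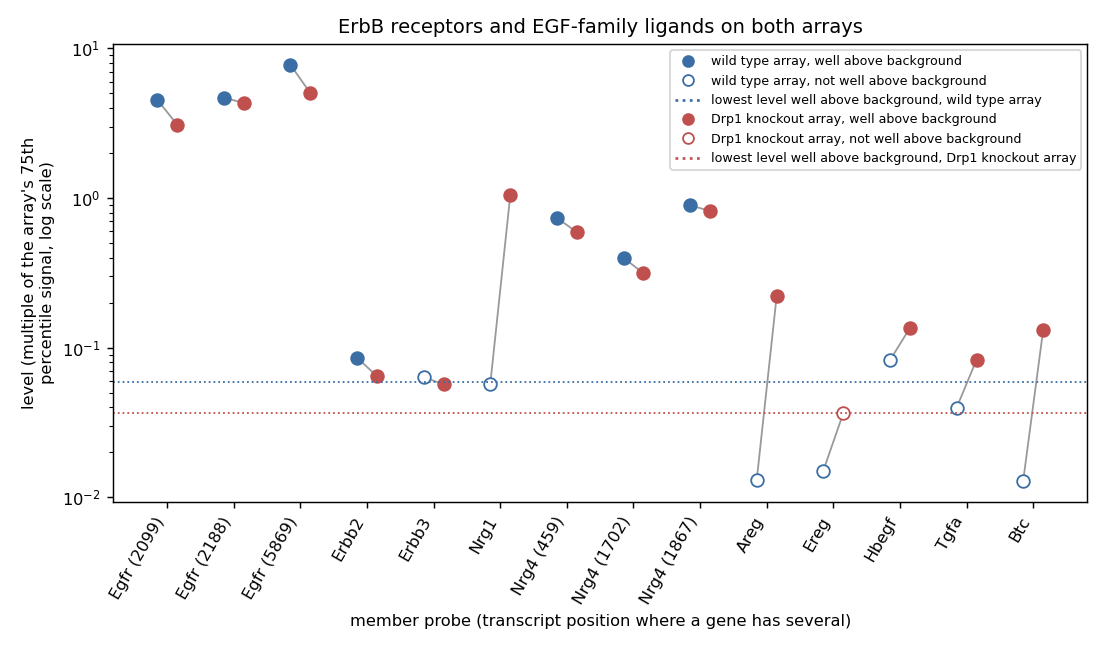
Level of each member probe (vertical, multiple of the array's 75th percentile signal, log scale) on the wild type (blue) and the Drp1 knockout array (red), 1 array each; filled points are detected and dotted lines mark the lowest detected level, per array. Levels can be compared within a probe, not between probes. Nrg1, Areg, Btc, Hbegf and Tgfa go from open wild type points to filled knockout points, while the Egfr, Erbb2 and Nrg4 pairs lie close together.

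The targeted gene was read by a single Dnm1l probe, at 933 in the wild type and 1266 in the knockout, which is 2.03 and 1.75 times the 75th percentile. The scaled log2 difference was -0.21, or 1.16-fold lower in the knockout, and it turned to 0.44 without scaling and to 0.58 when the spike-in spots were set equal. Since the deleted part is not given, this probe checks no label. The labelled tissue was checked by 10 hepatocyte markers, all detected on both arrays, with a summed level of 2790 in the wild type and 1998 in the knockout. The SD between spots of a probe, pooled over 241 probes with several spots, came to 0.14 for a log2 difference between the arrays. It covers measuring error on an array and not the spread between animals.

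Egfr, the receptor of EGF itself and of most ligands here, was read by 3 probes along its transcript. The first lies at chr11:16783556-16783615 (mm9, plus strand), position 2099 of transcript variant 2, and the files match it to several Egfr transcripts. The second lies at chr11:16787172-16787231, position 2188, and the files match it to variant 2, the short form, and its cDNAs. Both sequences are shown because they separate what the forms share from what sets the short form apart. The capitals mark a TAA stop codon in the frame that starts at the first base of the probe, which holds no earlier stop. In the short transcript the probes start 89 bases apart.

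Egfr, position 2099: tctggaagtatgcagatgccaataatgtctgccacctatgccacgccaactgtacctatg

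Egfr, position 2188: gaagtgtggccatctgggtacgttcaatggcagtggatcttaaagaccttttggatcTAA

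The third probe, at chr11:16813815-16813874 and position 5869 of variant 1, the long form that encodes the full receptor, was printed in 10 copies. Its signal was 3581 ± 129 (SD, n = 10 spots) in the wild type and 3619 ± 133 (SD, n = 10 spots) in the knockout, so the raw spots overlapped. After scaling the spots ran from 7.34 to 8.08 times the 75th percentile in the wild type and from 4.62 to 5.22 in the knockout, without overlap. The long form probe therefore read 1.55-fold lower in the knockout (log2 difference -0.63), and this rests on the scaling of the arrays. Without scaling its log2 difference was 0.01, and with the spike-in spots set equal it was 0.16.

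The 2 single-spot probes did not read alike. The probe at position 2099 read 2091 in the wild type and 2230 in the knockout, a scaled log2 difference of -0.56 or 1.47-fold lower. The short form probe at position 2188 read 2158 and 3118, a scaled difference of -0.12 or 1.08-fold lower. Relative to the long form probe, the short form probe was thus higher in the knockout by 0.52 on the log2 scale, and relative to the probe at position 2099 by 0.44. Each contrast carries an error of 0.29 by the error estimates that Feature Extraction gives for the spots. A uniform scaling cancels in such a contrast, and over the alternatives they ranged from 0.46 to 0.52 and from 0.40 to 0.46, while the long form probe and the probe at position 2099 differed by 0.08. The probes were set against each other after their values had been seen.

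Erbb2, the partner receptor without a ligand, was read by a probe in 10 copies at chr11:98298103-98298162. One wild type spot was left out as an outlier. Of the other 9 wild type spots 7 were well above background, with a signal of 42.1 ± 14.4 (SD, n = 9 spots), and all 10 knockout spots were, with 47.1 ± 8.20 (SD, n = 10 spots). The scaled difference was -0.41 with a spot SD of 0.62, and the spots of the arrays overlapped on either scale. At this brightness the difference of Erbb2 was smaller than the spread between spots. That spread is the SD of a difference between single spots and not the error of a difference between means over 9 and 10 spots.

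Erbb3, which binds neuregulins and relays to PI3K, was near background on both arrays. Its probe read 29.3 in the wild type, not detected, and 41.0 in the knockout, detected, which is 0.0636 and 0.0569 times the 75th percentile. No fold is given, because the knockout level lay below the wild type one after scaling. The probe covers the last codons of the gene at chr10:128006424-128006483 (mm9, minus strand), with the stop codon in capitals, so it reads transcripts that carry this end.

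Erbb3: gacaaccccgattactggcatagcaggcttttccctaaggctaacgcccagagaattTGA

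**Figure D2:**
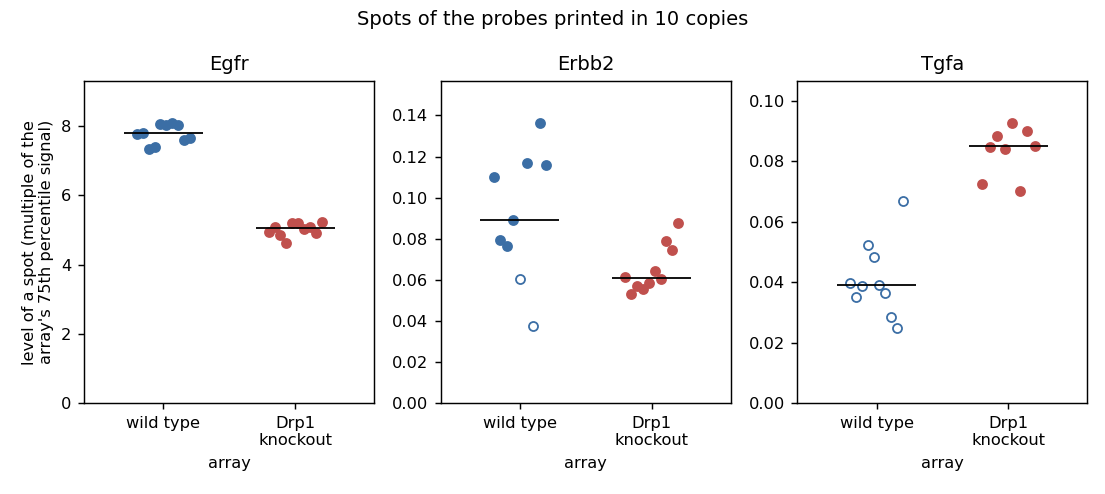
Level of each usable spot (vertical, multiple of the array's 75th percentile signal, from 0) of the 3 member probes printed in 10 copies, by array; filled points are well above background by the scanner software, and the line is the median. The spots of Egfr and of Tgfa do not overlap between the arrays, while those of Erbb2 do; the points are copies on 1 array and not animals.

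Nrg1 encodes a family of neuregulins with roles in nerve, heart and epithelium, which bind Erbb3 and Erbb4. It showed the greatest bound among the members. Its probe read 26.3 in the wild type, with an error of 7.10 by Feature Extraction, and 754 in the knockout, with an error of 75.6. The wild type spot was not detected, and the knockout spot stood at 1.04 times the 75th percentile. The knockout level was at least 17.6-fold higher, the bound in place 4 of the 3043 probes detected in the knockout only. Because the members had been chosen by this difference, the place is a description. Under normexp background correction, which lifts dim signals, the log2 bound was 2.63 in place of 4.14. The probe is shown since the result rests on this 1 sequence. It ends in the stop codon (capitals) at chr8:32928500-32928559 (mm9, minus strand), so Nrg1 forms with another end are not read.

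Nrg1: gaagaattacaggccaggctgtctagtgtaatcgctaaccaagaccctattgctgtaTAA

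Areg, or amphiregulin, is an Egfr ligand of tissue repair, also made by immune cells. Its probe read 6.02 in the wild type, where Feature Extraction gives an error of 5.99, and 161 in the knockout, with an error of 16.9. The wild type value is at the bottom of the scale, and the bound of 3.76-fold is set by the lowest detected level (0.0593 times the 75th percentile) and not by the spot itself. The probe lies at chr5:91570090-91570149 (mm9, plus strand), position 426 of the transcript.

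Areg: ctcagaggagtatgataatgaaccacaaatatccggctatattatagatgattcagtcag

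Btc, betacellulin, an Egfr and Erbb4 ligand, read 5.93 and 94.5 (errors 5.92 and 10.8), detected in the knockout only, with a bound of 2.21-fold. Ereg, epiregulin, read 6.94 and 26.4 and was not detected on either array, so no fold is given. Areg, Ereg and Btc are neighbours: in the order of protein-coding genes of GRCm38.p6, Epgn, Ereg, Areg and Btc follow each other with none between. Their probes lie within 323 kb on chromosome 5. Epgn, the fourth ligand of the row, was not detected on either array. Of the 4 ligands in the row, 2 were thus detected in the knockout and 0 in the wild type. Over all gene probes 7.72% were detected in the knockout only and 1.14% in the wild type only. Areg and Btc had been chosen by their difference between these arrays.

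Promoters were looked up for the members in RefSeq (GRCm38.p6), which matched 6 of the 10 (Areg, Btc, Tgfa, Nrg4, Egfr and Erbb2). The 250 bases before the start were searched on both strands for the cyclic AMP response element TGACGTCA, for TGATGNAA, the core of the Atf4 and Cebp composite element, and for the AP-1 site TGANTCA. The first was found in Areg alone and in 1.55% of all 32851 promoter windows. The others were found in 0 of the 6 promoters, against 3.45% and 6.75% of all windows. A match describes letters and not binding. The stretch before the Areg start, chr5:91139479-91139598 (GRCm38.p6, plus strand), is shown with the element in capitals, from 61 to 54 bases before the start.

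Areg promoter: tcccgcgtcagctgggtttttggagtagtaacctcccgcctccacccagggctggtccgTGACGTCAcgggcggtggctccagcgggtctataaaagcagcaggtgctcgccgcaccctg

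Tgfa, the Egfr ligand made by hepatocytes during regeneration, was read by a probe in 10 copies at chr6:86224838-86224897. The wild type spots gave 18.9 ± 5.59 (SD, n = 10 spots) and 0 of them were well above background. In the knockout 2 spots were left out as outliers, and all 8 others were well above background, at 60.2 ± 5.79 (SD, n = 8 spots). The highest wild type spot read 30.8 and the lowest knockout spot 50.6, so the arrays did not overlap before scaling, nor did they after it (up to 0.0669 against from 0.0701). The bound was 1.40-fold, below the 1.5-fold used for counts. Hbegf, a heparin-binding Egfr ligand, read 37.98 in the wild type, not detected, and 97.8 in the knockout, with errors of 8.67 and 11.9. Its bound of 1.64-fold is the ratio of these readings after scaling, since the wild type spot lay above the lowest detected level. Of the 6 probes detected in the knockout only, 4 had a bound of at least 1.5-fold, against 24.5% of the 3043 such probes on the array. The members had been chosen by the difference between these arrays, so this count describes them and tests nothing. Hbegf lay just past 1.5-fold and Tgfa just short of it, and Erbb3 had no bound.

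Nrg4, a neuregulin known as a fat-derived signal to hepatocytes that restrains lipid synthesis, differed from the other ligands in being detected on both arrays by all 3 probes. The probe at position 459 read 339.5 in the wild type and 427 in the knockout, that at position 1702 of a cDNA 184 and 227, and that at position 1867 412 and 591. The scaled differences were -0.32, -0.34 and -0.13, or 1.25-fold, 1.27-fold and 1.09-fold lower. The 3 probes differed among themselves by at most 0.21, within the Feature Extraction error of such a contrast (0.30). None passed 1.5-fold. The probe at position 459 is shown because it spans 8559 bases of the genome (chr9:55075745-55084303, mm9, minus strand), so that its 60 bases join exons and read spliced RNA.

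Nrg4, position 459: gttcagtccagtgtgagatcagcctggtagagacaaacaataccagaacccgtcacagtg

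Among the 7 member probes measured on both arrays, 0 read higher in the knockout by 1.5-fold or more and 1, the long form probe of Egfr, read lower by as much. Over all 19470 probes measured on both arrays the shares were 8.6% and 13.5%, so the members' counts are near this background. All 7 differences were below 0, with a median of -0.34 against -0.11 for all measured probes. That median is itself below 0, so most measured probes also read lower, and the 7 probes belong to only 3 genes. Relative to the median of all 15401 measured genes (-0.11), Egfr as the mean of its probes lay at -0.33, Erbb2 at -0.30 and Nrg4 at -0.15, and a uniform scaling leaves these values as they are. In the tenth of levels that holds the Egfr probes, the median of all probes was -0.14. The Egfr probes lay at -0.41, 0.02 and -0.49 from that median, in transcript order.

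**Figure D3:**
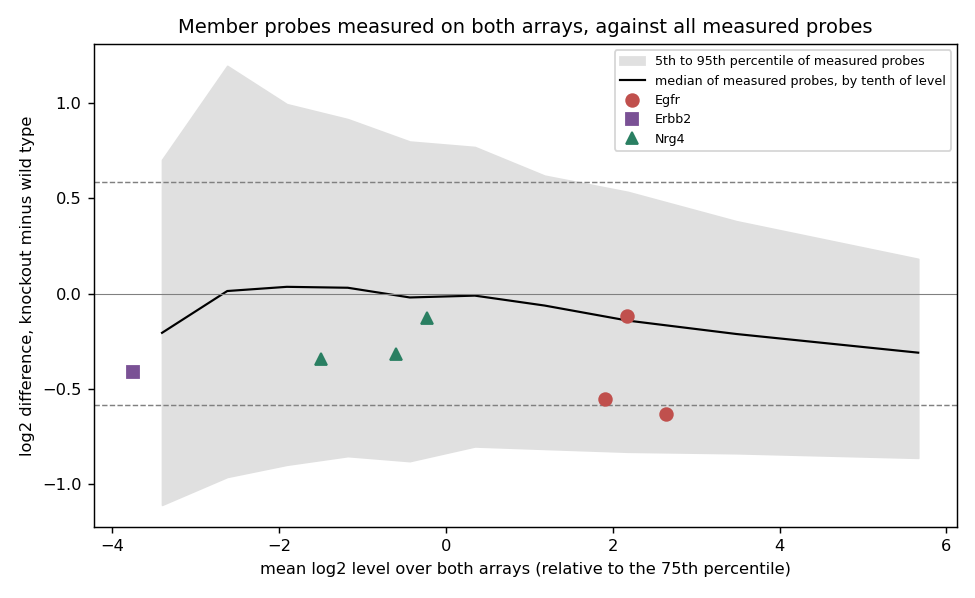
Log2 difference, knockout minus wild type (vertical), against mean log2 level over both arrays (horizontal) for the 7 member probes measured on both arrays; the grey band and the line give the 5th to 95th percentile and the median of all measured probes in 10 groups by level, and dashed lines mark 1.5-fold. All 7 points are below 0 and 1 Egfr point lies past the lower dashed line.

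The scaling between the arrays set the sign of Egfr, Erbb2 and Nrg4 and not that of the ligand bounds. Their gene differences were -0.44, -0.41 and -0.26 with the main scaling, 0.21, 0.24 and 0.38 without scaling, and 0.36, 0.38 and 0.53 with spike-in scaling. The last 2 settings moved the median of all genes by 0.65 and 0.79. Bounds of Nrg1, Areg, Btc, Hbegf and Tgfa were above 0 under each of the 8 alternatives that give a bound. Their lowest log2 values, all under normexp, were 2.63, 0.92, 0.53, 0.13 and 0.05. Btc and Hbegf then fell short of 1.5-fold, as Tgfa did with the main setting. These genes were those with a bound above 0 in the main setting, which leaves out Erbb3. Some alternatives could not turn the sign. The stricter filter left each bound unchanged, and spike-in or no scaling raised each, Areg from 1.91 to 2.70 and 2.56.

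**Figure D4:**
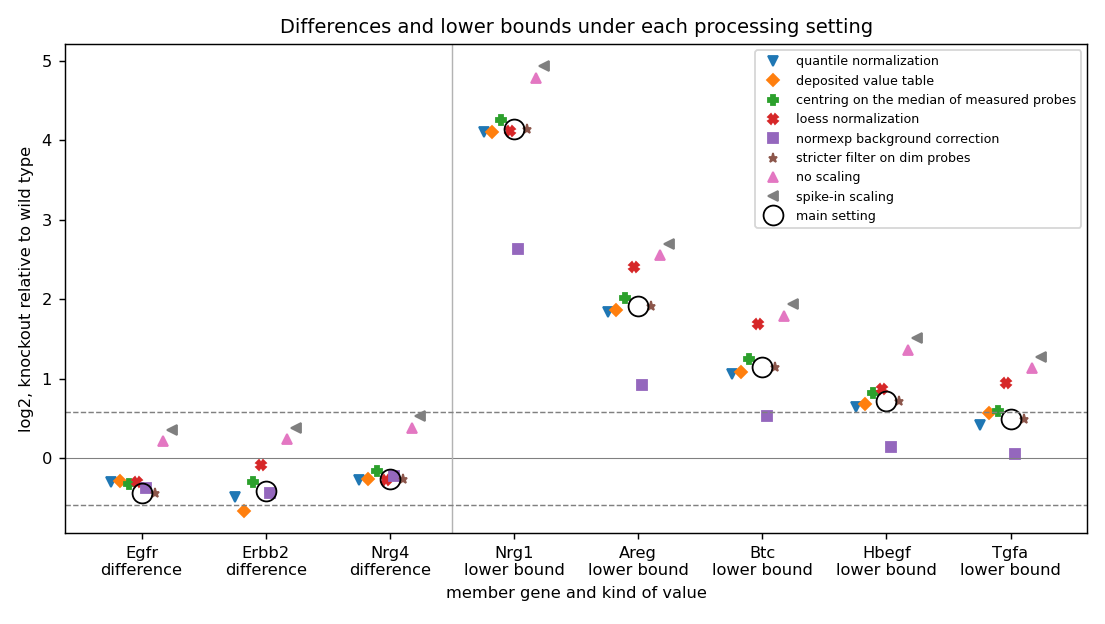
Log2 difference (left of the vertical line) or log2 lower bound (right of it) of each member gene under the main setting (open circle) and under 8 alternatives (symbols), with dashed lines at 1.5-fold. The differences of Egfr, Erbb2 and Nrg4 cross 0 when the arrays are not scaled or are scaled to spike-in spots; the 5 bounds stay above 0 and are smallest under normexp.

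The other genes of the pathway were taken from 5 lists of 81 genes. Of 60 genes measured on both arrays, 10 read higher in the knockout by 1.5-fold or more (16.7%) and 4 lower (6.67%). Over all measured genes the shares were 8.41% and 13.4%. These shares of all genes became 11.1% and 9.58% with median centring, 9.67% and 9.58% with loess, 45.5% and 1.86% without scaling and 59.2% and 1.34% with spike-in scaling. The higher genes were uneven over the lists: 6 of the 10 were ERK-responsive transcription genes, a list with 10 measured. In the order given below, the other lists had 0 of 1, 1 of 10, 1 of 13 and 2 of 26 measured genes higher. Of the 4 lower genes 1 was ERK-responsive.

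Among the other receptor and ligands, Erbb4 read 1.11-fold lower (log2 difference -0.15). Egf was detected in the knockout only, at too low a level for a bound. Epgn, Nrg2 and Nrg3 were detected on neither array.

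Genes of ligand shedding had a median of -0.05, with 1 of 10 measured higher and 1 lower. Rhbdf2, an iRhom that carries the sheddase Adam17 to the cell surface, was 1.53-fold higher and its relative Rhbdf1 1.49-fold. Timp3, an inhibitor of Adam17, was 1.37-fold higher. Bace1, a protease that also cuts Nrg1, was 1.63-fold lower. Adam17 itself read 1.30-fold lower, at 0.0711 and 0.0549 times the 75th percentile, close to background, and was chosen for naming after its value had been seen.

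Brakes on ErbB and ERK signalling had a median of -0.12, with 1 of 13 measured higher and 0 lower. Spry1, a Sprouty inhibitor of Ras-ERK signalling, was 2.20-fold higher. Lrig3 and Lrig2, relatives of the Egfr inhibitor Lrig1, were 1.37-fold and 1.36-fold lower, and the ubiquitin ligase Stub1 1.33-fold lower. Dusp4, an ERK phosphatase induced by ERK itself, was detected in the knockout only, at least 5.17-fold higher. Its relative Dusp6 was 1.13-fold higher, and Dusp5, Spry2 and Spry4 were detected on neither array. The Dusp genes, Spry2 and Spry4 were named after their values had been seen. So was Errfi1, the feedback inhibitor of Egfr, which was 1.13-fold lower, at 115 and 102 times the 75th percentile.

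The adaptors and the Ras-ERK and PI3K-Akt relay had a median of -0.07, with 2 of 26 measured higher and 2 lower. Plcg1, a phospholipase recruited by Egfr, was 2.50-fold lower, but its 2 probes gave -2.40 and -0.24. Pik3r1, the regulatory subunit of PI3K, was 1.84-fold lower. The kinase Araf was 1.57-fold higher from 3 probes between -0.21 and 2.12, and Rasa1, which switches Ras off, 1.54-fold higher.

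ERK-responsive transcription genes had a median of 0.70, against -0.11 over all genes, with 6 of 10 measured higher and 1 lower. Egr1 was 5.85-fold higher, the cyclin Ccnd1 3.95-fold and Myc 3.09-fold, while Phlda1 was 2.22-fold lower. Fos, Egr2 and Ier3 were detected in the knockout only, with bounds of 3.05-fold, 2.32-fold and 1.61-fold. Over all gene probes 7.72% were detected in the knockout only, of which 24.5% had a bound of at least 1.5-fold. Fosl1 and Egr3 were detected on neither array. For the rest of the list, Jun, Ier2, Fosb and Junb were 1.70-fold, 1.69-fold, 1.56-fold and 1.30-fold higher, and Etv4 and Etv5 1.27-fold and 1.12-fold lower. Genes of this list respond to other stimuli as well, and the list was made with earlier results of these data known.

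**Figure D5:**
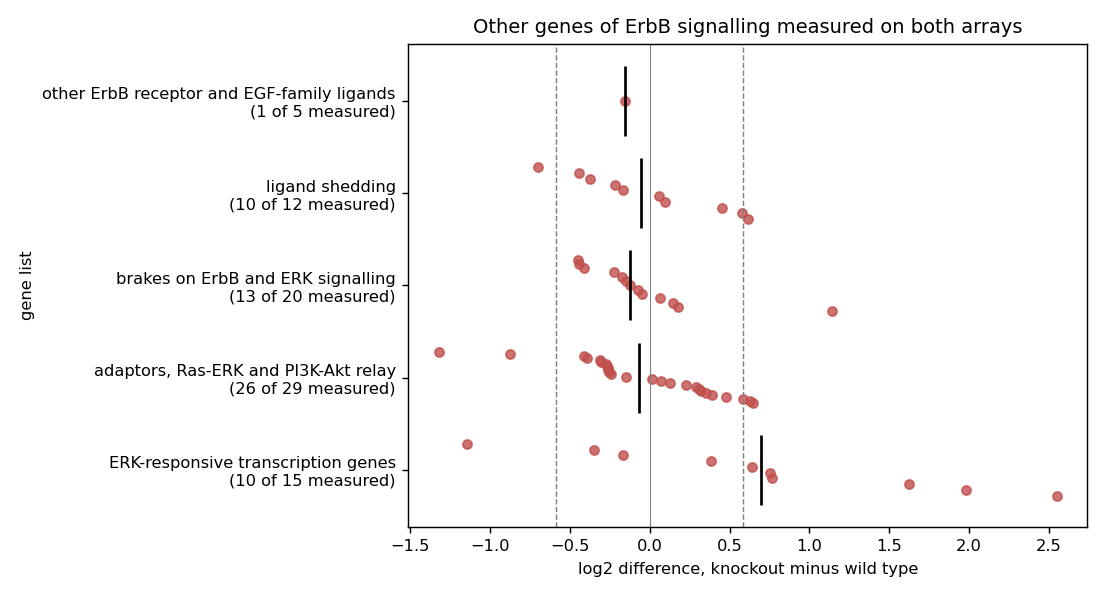
Log2 difference, knockout minus wild type (horizontal), of each pathway gene measured on both arrays, by list (vertical), with the median of each list as a bar and dashed lines at 1.5-fold. The ERK-responsive genes have a median of 0.70, and the medians of the other lists lie between -0.15 and -0.05.

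Markers of other cell types also differed between the arrays, and in bulk liver RNA fewer cells of a type and less RNA per cell cannot be told apart. Of 10 stellate cell and fibroblast markers 7 read higher in the knockout by 1.5-fold or more and 1 lower. Their summed level was 48.1 in the wild type and 71.3 in the knockout, of which the brightest marker made up 44.6 and 63.0. Of 9 bile duct markers 5 were measured on both arrays, of which 3 were higher, with a summed level of 0.9041 and 1.4995. Krt7 was detected in the knockout only, Cftr in the wild type only, and Epcam and Muc1 on neither. Of 10 macrophage markers 3 were higher and 1 lower (summed level 103 and 115), of 7 endothelial markers measured 2 were higher (54.6 and 46.0 over all 8), and of 4 lymphocyte markers measured 1 was higher and 1 lower. Of 6 neutrophil markers measured 0 were higher and 4 lower. Their part in the ligand values was not tested.

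Markers of skeletal muscle and fat also differed. Of 9 skeletal muscle markers 7 were detected in the wild type and 0 in the knockout, with a summed level of 7.44 and 0.135. Of 7 adipocyte markers 3 were detected in the wild type and 2 in the knockout (summed level 6.91 and 2.65). The 2 measured on both arrays had log2 differences of -5.07 and 0.01. Ucp1 was detected in the wild type only, and Adipoq, Plin1, Lep and Retn on neither. The part of these markers' cells in the Nrg4 and receptor values was not tested.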

How the data were processed

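Liver RNA was hybridised to 2 Agilent arrays with Cy3 as the single dye. The deposited scanner files hold spot intensities from Agilent Feature Extraction, version 9.5.1.1 per the submitters' processing notes and 10.7.1.1 per the file headers; the processed signal is background-subtracted and detrended. The value table the authors deposited also gives linear intensities and served as an alternative.

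Control spots and outlier spots (183 wild type, 190 knockout) were left out. Signals were log2-transformed relative to each array's 75th percentile, and copies of a probe were averaged. A probe counted as detected with 50% or more of its spots well above background. Probes detected on both arrays (called measured) were averaged to a difference per gene. The named genes are all member probes, Dnm1l and up to 4 genes a list with the greatest difference; exceptions are stated. Members, lists and alternatives were chosen with earlier results of these data known. The alternatives were quantile, median, loess (span 0.3), spike-in and no scaling, normexp (limma 3.58.1, offset 50), no filter on dim probes and a stricter one (25th percentile), 2-fold, the brightest probe and the deposited table. Counting was tested on simulated data. Python 3.11.15 and R 4.3.3 were used. The number of arrays limits the precision. Promoters came from RefSeq, GRCm38.p6; probe positions are the files' own, in mm9. One bile duct marker of the planned list is not reported here.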

Additional observations from a re-analysis of the deposited data

How the results depend on the processing

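No paired analysis was possible because each group holds 1 array, and for the same reason no array could be left out. The count of member probes at least 1.5-fold higher, 0, became 2 with spike-in scaling and 6 without a filter on dim probes. The count of those lower, 1, became 0 with median centring, loess, quantile, spike-in or no scaling, normexp, or at 2-fold, so this call rests on the main scaling, background correction and threshold. With the deposited table the count was again 1, but the call was Erbb2 (-0.67, against -0.41 in the main setting and -0.09 with loess), and the long form probe of Egfr was at -0.47. The long form probe of Egfr changed sign without scaling (0.015) and with spike-in scaling (0.16). Pathway genes higher, 10, became 4 at 2-fold, 22 without the filter, 30 without scaling, 5 with normexp and 38 with spike-in scaling; those lower, 4, became 2, 9 and 1 in the first 3 of these settings and 0 with spike-in scaling. Relative to all genes, the median of the ERK-responsive genes, 0.81, was 0.65 with quantile normalization, 0.33 with normexp and 1.07 without the filter. The median of the brakes, -0.01, was 0.21 without the filter, and that of ligand shedding, 0.06, was 0.39 without it and 0.20 with the stricter one. Erbb4, the only measured gene of its list, moved from -0.04 to -0.19 with the deposited table, -0.20 with quantile normalization and -0.20 with normexp, and without the filter its list had a median of -0.19. The median of the relay genes moved by less than the spot SD under every alternative run. The causes were not tested. Signals near background limit Erbb2, Erbb3, Ereg, Hbegf and Tgfa and, on the wild type array, also Nrg1, Areg and Btc. Having 1 array a group limits every value.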
